A study of Mus musculus with 2 samples.

Results

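The respiratory chain genes of the liver were read on Agilent arrays in male mice injected with an adenovirus for miR-378, a microRNA that the labels give as overexpressed (Ad-378), and in male mice injected with a control virus (Ad-Ctrl). The members were the genes for nuclear-encoded subunits of complexes I to V, and for factors with the same gene names, chosen by symbol: Sdha to Sdhd, Cyc1, and all symbols beginning with Nduf, Uqcr, Cox4i, Cox5, Cox6, Cox7, Cox8 or Atp5, without pseudogenes. This gave 94 genes of the 20652 that the array's transcript identifiers name. They divide into 36 subunits of complex I, 4 of complex II, 9 of complex III, 19 of complex IV, 17 of complex V and 9 assembly or supercomplex factors. For both groups the livers of 5 mice were pooled and read on 1 array. Mice received 1e9 plaque forming units by the tail vein at 8 weeks of age. Livers came 2 weeks after injection by the protocol text, but the Ad-378 description gives 3 weeks, so time and virus cannot be told apart if that entry is right. The labels name a kit for blood RNA with globin removal although the tissue is liver, and they give no strain and no level of miR-378. All animals in both groups carried an adenovirus, and no uninjected mice were used here. Pooling leaves no spread between mice, so no test between the groups was possible and no p-values are printed.

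The respiratory chain passes electrons from NADH through complex I, and from succinate through complex II, by ubiquinone, complex III and cytochrome c to oxygen at complex IV. Complexes I, III and IV move protons across the inner mitochondrial membrane, and complex V, the ATP synthase, uses the return of those protons to make ATP. Most subunits are encoded in the nucleus. A smaller set is encoded by mitochondrial DNA and is not among the members. In hepatocytes the chain meets the ATP demand of gluconeogenesis and urea synthesis and takes up the electrons that fatty acid oxidation releases.

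Each gene's value is the processed signal of its brightest probe well above background in both pools, divided by the 75th percentile of its array and put on a log2 scale. That percentile was a signal of 767 in Ad-378 and 881 in Ad-Ctrl, so every log2 difference, Ad-378 minus Ad-Ctrl, is 0.20 above the log2 ratio of the signals printed here. Of 43020 gene spots per array, 65.7% in Ad-378 and 63.1% in Ad-Ctrl were well above background, and none was saturated. Signals of different probes are not comparable with each other. The scanner error of a difference was 0.20 log2 units for most members (range 0.20 to 0.26), which covers measurement on the array and not mice. Hepatocyte markers checked the labelled tissue: 14 of 14 on the array, among them Alb, Ttr and Apoa1, were well above background in both pools.

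Most respiratory chain genes had small positive differences, with higher values in Ad-378 livers. Of the 94 members, 91 were measured in both pools, and 87 of these had a positive log2 difference, beside 53.6% of the 14288 genes measured. The median difference was 0.41, or 1.32-fold, with the middle 50% of members between 0.32 and 0.53. Over all genes the median was 0.04, with the middle 50% between -0.28 and 0.30. At least 25% higher in Ad-378 were 68 members (74.7%, against a background of 23.1% of all genes), and 2 were at least 20% lower, the same distance on the log2 scale (background 22.7%). At least 1.5-fold higher were 15 members (16.5%, background 8.66%), and 2 were at least 1.5-fold lower (background 12.2%). No member was 2-fold higher (background 2.81%), and 1, Cox6b2, was at least 2-fold lower (background 4.55%). Of the 91, 47 (51.6%) lay above 0 by more than the 95% range of their scanner error, beside 15.7% of all genes. Dim genes carry larger scanner errors, so the share of all genes is not taken at a like cut-off. The members were close to each other on the scale of the scanner error. Outside its 95% range around the members' own median lay 6 members. Ndufb3, Ndufs8 and Ndufaf8 were above it, and Atp5c1, Cox7a1 and Cox6b2 below it.

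The size of these differences depended on the scaling between arrays. Before any scaling the signal was higher in Ad-378 for 83 of the 91 members, with a median difference of 0.21, while the median over all genes was -0.16. Under quantile normalization the members' median was 0.26, with all genes at -0.00. Under loess, which removes a trend with brightness, it was 0.25, with all genes at -0.03. In either case 32 members (35.2%) were at least 25% higher, beside 19.9% of all genes under quantile normalization and 18.6% under loess. At least 1.5-fold higher under quantile normalization were 5 members, beside 1102 of the 14288 genes, so the higher share of the main setting was not kept. Setting the median of the hepatocyte markers to 0 gave the members a median of 0.24, with all genes at -0.13. Over all genes, 3294 were at least 25% higher and 3247 at least 20% lower in the main setting, against 1567 higher and 5126 lower with no scaling. In all 10 settings run 83 of the 91 members were positive. Within single settings the positive share ran from 91.2% (no scaling) to 96.7% (normexp) for members. For all genes it ran from 33.8% (no scaling) to 58.1% (normexp). The share of all genes positive in every setting was not counted. Counts within the complexes moved with the scaling too. At least 25% higher under either quantile normalization or loess were 19 subunits of complex I (34 in the main setting), 0 of complex II (1), 4 of complex III (8), 1 of complex IV (8), 3 of complex V (11) and 5 factors (6). With no scaling these counts were 15, 0, 3, 0, 3 and 3 in the same order, and with the mean over probes complex II had 3. The 8 members not positive in all 10 settings were Cox6b2, Cox7a1, Cox6a2, Atp5c1, Cox4i2, Ndufa4l2, Ndufab1 and Ndufaf6, and the last 4 of these had positive values that turned negative with no scaling and with hepatocyte centring. Ndufaf6 was also negative under quantile normalization (-0.01) and loess (-0.02).

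**Figure D1:**
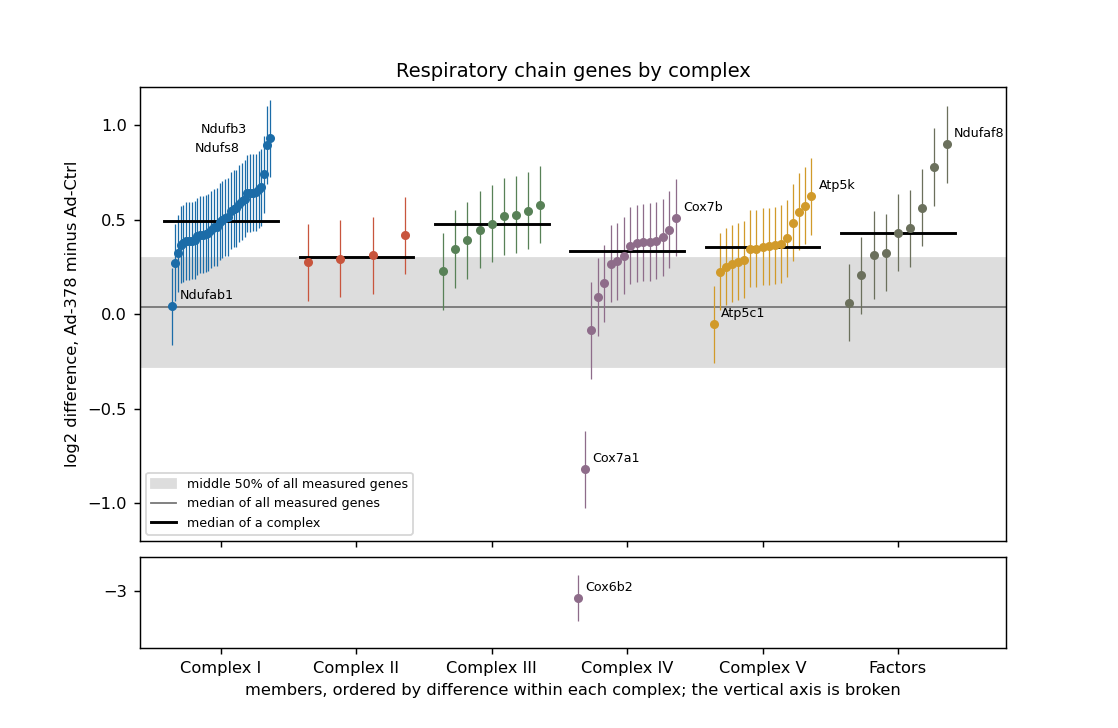
Log2 difference between pools (vertical axis, Ad-378 minus Ad-Ctrl, broken above Cox6b2) for each of the 91 members measured in both, grouped by complex on the horizontal axis. Bars show 1 scanner error, black lines the median of each complex and the grey band the middle 50% of all measured genes; complex I (median 0.49) and complex III (0.48) sit highest, complex II (0.30) lowest, and Cox6b2 (-3.06) and Cox7a1 (-0.82) stand apart.

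Nuclear respiratory factor 1 (NRF1), the ETS-family factor GABP and YY1 are known to bind promoters of many respiratory chain genes. RefSeq promoter windows (GRCm38.p6, 250 bases before to 50 after each start) were found for 76 members, in 81 windows. The NRF1 consensus, searched on both strands, whose matches stand in capitals in the Ndufb4 and Sdhd sequences printed here, was found in 19 of the 76 (25%), against 5.19% of all 27025 genes with a window. On either strand, the ETS core CCGGAAG was found in 19 (25%, against 9.93% of all genes) and the YY1 letters AAGATGGC in 11 (14.5%, against 3.19%). In no window did matches of 2 of these motifs overlap each other. Both NRF1 and ETS letters were found in Atp5h, Atp5k, Cox6a1 and Sdhd, and 34 of the 76 genes had none of the 3 motifs. A match describes letters in this window and is not a bound site. The background is all genes with a window, whether or not they were measured in these livers. Shares among measured genes were not counted, so an excess particular to the chain was not tested. The median difference between pools was 0.36 for the 19 measured genes with the NRF1 motif and 0.42 for the 55 without it. It was 0.41 with and 0.42 without the ETS core, and 0.43 with and 0.41 without the YY1 letters.

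The 250 bases before the start are printed 5′ to 3′ on the gene's own strand for 6 members: Ndufb4 and Sdhd as genes with NRF1 letters, Ndufaf8 and Ndufb3 as the highest factor and the highest subunit, and Cox6b1 with its testis isoform Cox6b2, the member furthest below. Capitals mark matches to the NRF1, ETS and YY1 letters on either strand. Sequences are from RefSeq, build GRCm38.p6.
Ndufb4, chr16:37654369-37654618, minus strand: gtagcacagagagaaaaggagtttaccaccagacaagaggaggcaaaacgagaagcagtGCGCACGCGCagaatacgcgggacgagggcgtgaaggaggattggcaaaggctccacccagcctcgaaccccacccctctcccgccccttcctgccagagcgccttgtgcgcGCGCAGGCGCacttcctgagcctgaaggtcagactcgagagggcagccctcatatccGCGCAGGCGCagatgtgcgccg
Sdhd, chr9:50603850-50604099, minus strand: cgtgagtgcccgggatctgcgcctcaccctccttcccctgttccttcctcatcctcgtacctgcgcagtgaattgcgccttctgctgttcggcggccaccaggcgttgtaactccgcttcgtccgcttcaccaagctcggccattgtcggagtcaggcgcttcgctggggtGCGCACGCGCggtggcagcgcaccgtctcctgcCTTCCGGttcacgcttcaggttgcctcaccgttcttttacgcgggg
Ndufaf8, chr11:120098684-120098933, plus strand: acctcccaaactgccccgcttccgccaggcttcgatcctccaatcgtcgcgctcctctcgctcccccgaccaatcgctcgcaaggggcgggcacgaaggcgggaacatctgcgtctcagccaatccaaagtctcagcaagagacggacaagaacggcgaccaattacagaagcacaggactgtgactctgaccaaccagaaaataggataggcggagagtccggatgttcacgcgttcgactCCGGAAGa
Ndufb3, chr1:58586147-58586396, plus strand: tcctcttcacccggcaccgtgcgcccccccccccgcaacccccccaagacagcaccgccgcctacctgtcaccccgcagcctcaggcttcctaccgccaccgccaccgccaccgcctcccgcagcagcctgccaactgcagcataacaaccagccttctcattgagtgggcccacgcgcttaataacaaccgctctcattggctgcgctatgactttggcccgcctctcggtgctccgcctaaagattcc
Cox6b1, chr7:30626115-30626364, minus strand: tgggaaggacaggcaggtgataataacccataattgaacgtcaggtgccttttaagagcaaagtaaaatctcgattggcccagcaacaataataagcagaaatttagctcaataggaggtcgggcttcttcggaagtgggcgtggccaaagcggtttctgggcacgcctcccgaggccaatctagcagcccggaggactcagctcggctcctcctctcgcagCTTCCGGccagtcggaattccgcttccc
Cox6b2, chr7:4753095-4753344, minus strand: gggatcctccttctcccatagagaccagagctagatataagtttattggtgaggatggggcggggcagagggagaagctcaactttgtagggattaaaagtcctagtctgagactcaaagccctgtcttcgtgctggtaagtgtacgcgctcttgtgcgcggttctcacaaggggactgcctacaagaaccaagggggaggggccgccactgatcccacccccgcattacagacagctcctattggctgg
Ndufb4 holds 3 NRF1 matches before its start, and Sdhd holds 1 NRF1 and 1 ETS match. Ndufaf8 and Cox6b1 each hold 1 ETS match. In Ndufb3 and Cox6b2 none of the 3 motifs was found before the start, so both the highest subunit and the lowest lack these letters there.

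Complex I, which takes electrons from NADH, had the highest median of the 5 complexes, with complex III close behind at 0.48. All 36 subunits had a positive difference, 34 were at least 25% and 12 at least 1.5-fold higher in Ad-378, and the median was 0.49 (1.41-fold). Ndufb3, an accessory subunit of the membrane arm, had a signal of 19736 in Ad-378 and 11889 in Ad-Ctrl, a log2 difference of 0.93 (1.91-fold). Ndufs8, a core iron-sulfur protein near the ubiquinone site, had 2747 in Ad-378 and 1696 in Ad-Ctrl, a difference of 0.90. These were the only complex I subunits above the members' median by more than the 95% range of the scanner error.

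The membrane arm, with 20 subunits here, had a median of 0.53. Its accessory subunit Ndufb10 had a signal of 24503 in Ad-378 and 16855 in Ad-Ctrl (difference 0.74), and Ndufa3 had 19563 in Ad-378 and 14101 in Ad-Ctrl (0.67). Ndufs5, Ndufb8 and Ndufb9 each differed by 0.64 and Ndufb4 by 0.60, with a second probe of Ndufb4 at 0.58. The electron input module, which binds NADH and flavin, had a median of 0.49 over 8 subunits. Its flavin-binding core protein Ndufv1 had a signal of 43003 in Ad-378 and 32917 in Ad-Ctrl, a difference of 0.59 that lies at the 1.5-fold line. The core proteins Ndufs1 and Ndufv2 differed by 0.50 and 0.49, and the accessory subunit Ndufa12 by 0.64.

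The ubiquinone module, where electrons leave complex I, had a median of 0.42 over 8 subunits. Beside Ndufs8, its core proteins included Ndufs7 (0.61), which carries the last iron-sulfur cluster before ubiquinone, and Ndufs3 (0.45). The accessory subunit Ndufa5 differed by 0.66 and 0.63 at its probes. Over the 7 core subunits of the peripheral arm the median was 0.50. The lowest complex I values were those of Ndufab1 and Ndufa8. Ndufab1, the mitochondrial acyl carrier protein that also serves mitochondrial fatty acid synthesis, had a signal of 1429 in Ad-378 and 1593 in Ad-Ctrl, a difference of 0.04, and Ndufa8 differed by 0.27. Ndufv3 had 1 bright probe at 0.51 and 1 dim probe at 0.10.

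Complex II, the succinate dehydrogenase shared with the tricarboxylic acid cycle, had the lowest median of the 5 complexes at 0.30 (1.23-fold), and 1 of its 4 subunits, Sdhd, was at least 25% higher. The flavoprotein Sdha had a signal of 20810 in Ad-378 and 19512 in Ad-Ctrl, a difference of 0.29. The iron-sulfur subunit Sdhb had 38630 in Ad-378 and 36652 in Ad-Ctrl (0.28), while its dimmer probe gave 0.54. The membrane anchors Sdhc and Sdhd, which hold the ubiquinone site, differed by 0.31 and 0.42. Of the 36 complex I subunits, 26 lay above Sdhd, the highest of complex II. The gap between the medians of these complexes, 0.49 and 0.30, is about the scanner error of a single gene, and no test of it was possible with 1 array per group. Complex I kept the highest median of the 5 in all 10 settings run, and complex II the lowest in 9 of them. Complex III lay close behind complex I in the main setting (0.48 beside 0.49) and under loess (0.31 beside 0.34). No scaling, hepatocyte centring and the percentile over detected probes each shift every difference by 1 constant, so they could not change this order. Dropping the background filter left the medians of complexes I and II as they were. With the mean over probes complex II stood at 0.36 and complex IV, at 0.34, was lowest.

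Complex III, which passes electrons from ubiquinol to cytochrome c, had a median of 0.48 over 9 subunits, all positive and 8 at least 25% higher. The redox subunits were the highest. The Rieske iron-sulfur protein Uqcrfs1 had a signal of 38771 in Ad-378 and 29784 in Ad-Ctrl, a difference of 0.58, and cytochrome c1, Cyc1, had 17447 in Ad-378 and 13719 in Ad-Ctrl (0.55). The small subunits Uqcrb (0.53; 0.53 to 0.63 over 3 probes), Uqcr11 (0.52) and Uqcr10 (0.48) followed. The lowest were Uqcrc1 (0.23), a core protein related to matrix peptidases, and Uqcrq (0.34).

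Uqcrc2, the other core protein, was printed in 10 spots on each array and so shows the spread among spots within an array. Its signals ran from 28491 to 31252 with a median of 29808 in Ad-378, and from 23189 to 26174 with a median of 25479 in Ad-Ctrl. The groups of spots did not overlap, before or after scaling. The SD of log2 signal among spots was 0.040 in Ad-378 and 0.058 in Ad-Ctrl, and the difference was 0.45. Each SD was well below the scanner error of 0.20. That error is of a difference and combines both arrays, so it is not a like measure of a single array. Repeat spots share the hybridised RNA, so they say nothing of the spread between mice.

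Complex IV, cytochrome c oxidase, held the members furthest below the rest. Its 11 liver-type and shared subunits, with Ndufa4 counted here because it is now placed in this complex, lay between 0.27 and 0.51 with a median of 0.38, and 8 were at least 25% higher. Cox7b had a signal of 28537 in Ad-378 and 23022 in Ad-Ctrl (0.51), Cox6c had 36026 in Ad-378 and 30362 in Ad-Ctrl (0.45), and Cox6b1 had 8508 in Ad-378 and 7374 in Ad-Ctrl (0.41). Cox4i1, the regulatory subunit that binds ATP, had 41243 in Ad-378 and 39002 in Ad-Ctrl (0.28), and the lowest was Cox7a2, the isoform used in liver, with 45509 in Ad-378 and 43427 in Ad-Ctrl (0.27). The other values were Cox6a1 0.39, Ndufa4 0.38, Cox8a 0.38, Cox5b 0.37, Cox7c 0.36 and Cox5a 0.31. The probes of Cox7c ranged from 0.36 to 0.69. With the isoforms of other tissues the median over 16 measured subunits was 0.34.

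Among the isoforms that other tissues use in place of these subunits, Cox6b2 and Cox7a1 were lower in Ad-378 by more than the 95% range of their scanner error. Of 8, 5 were measured in both pools, 3 of them negative, though Cox6a2 was positive after normexp background correction (0.08). Cox6b2, the testis isoform of Cox6b1, had a signal of 351 in Ad-378 and 3359 in Ad-Ctrl, a difference of -3.06, or 8.33-fold lower in Ad-378, with a scanner error of 0.20. It ranked 21 from the lowest of the 14288 genes, and it rests on 1 probe and 1 spot per array, whose sequence was not checked against the gene. Over the alternatives its difference ran from -2.82 to -3.26. Its 3 nearest measured genes on each side lay between -0.39 (Tmem190) and 0.43 (Il11). Tmem190 was dim, at 18.3 in Ad-378 and 27.5 in Ad-Ctrl, as was Il11, at 46.5 in Ad-378 and 39.6 in Ad-Ctrl. The neighbours Brsk1 and Tmem150b were dim too. Cox7a1, the heart and skeletal muscle isoform of Cox7a2, had 215 in Ad-378 and 437 in Ad-Ctrl, a difference of -0.82 (1.77-fold lower; -0.65 after normexp background correction and -0.67 on the raw median signals). Around Cox7a1 the nearest measured genes ran from -1.89 (Zfp382, with signals of 12.8 in Ad-378 and 54.5 in Ad-Ctrl) to 0.56 (Zfp146), and the adjoining Capns1 had -0.64.

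The rest of these isoforms differed by about the scanner error or less. Cox6a2, the muscle form, had signals of 31.6 in Ad-378 and 38.5 in Ad-Ctrl (-0.08), Cox4i2, the form known from lung, had 1394 in Ad-378 and 1430 in Ad-Ctrl (0.16), and Ndufa4l2, a paralog known to respond to hypoxia, had 184 in Ad-378 and 199 in Ad-Ctrl (0.09). Cox8b, a muscle and brown fat form, was well above background in Ad-378 only, with 18.3 in Ad-378 and 16.1 in Ad-Ctrl. Its scaled difference of 0.38 was within its scanner error of 0.42. The testis forms Cox7b2 and Cox8c were not well above background in either pool. Of 8 muscle genes set as markers, 1 (Tnni2, at 0.04) was well above background in both pools, while Ckm, Acta1, Mb and 4 others did not meet this in both. Because livers were pooled and read in bulk, fewer cells of a type and less RNA per cell cannot be told apart.

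**Figure D2:**
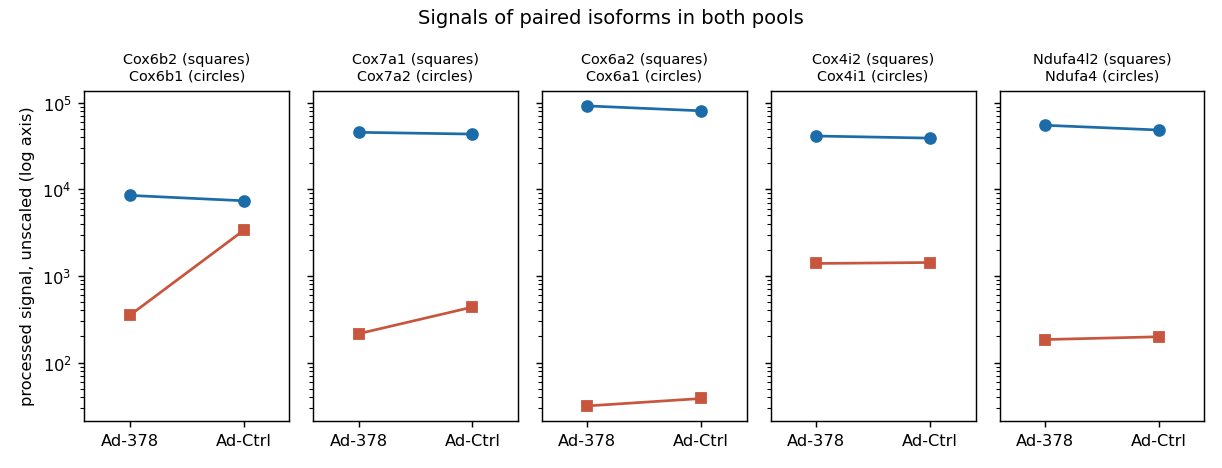
Processed signal before scaling (vertical log axis) in the Ad-378 and Ad-Ctrl pools, 1 value per pool, for 5 pairs of a tissue isoform (squares) and the form used in liver (circles). Cox6b2 is at 351 in Ad-378 and 3359 in Ad-Ctrl and Cox7a1 at 215 in Ad-378 and 437 in Ad-Ctrl, while the liver forms are slightly higher in Ad-378; levels of different probes cannot be compared.

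Complex V, the ATP synthase, had a median of 0.36 (1.28-fold) over 17 subunits, 16 of them positive and 11 at least 25% higher. The highest was Atp5k, subunit e of the membrane part that helps the enzyme form dimers, with a signal of 30818 in Ad-378 and 22960 in Ad-Ctrl (0.62; 0.69 at its other probe). In the catalytic F1 part the values ran from -0.05 to 0.57. Atp5d (delta) had 8828 in Ad-378 and 6817 in Ad-Ctrl (0.57), Atp5e (epsilon) differed by 0.40 and Atp5a1 (alpha) by 0.36. Atp5b, the catalytic beta subunit, had 74289 in Ad-378 and 73045 in Ad-Ctrl (0.22). Atp5c1, the gamma subunit of the rotor, was the member whose probes disagreed in sign: the brighter had 19738 in Ad-378 and 23512 in Ad-Ctrl (-0.05), and the dimmer 12093 in Ad-378 and 10043 in Ad-Ctrl (0.47). Which transcripts these probes read was not checked.

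The 3 genes that encode the identical subunit c of the proton-driven ring differed by 0.54 (Atp5g1), 0.36 (Atp5g3) and 0.27 (Atp5g2; 0.36 at its other probe). The peripheral stalk, which holds the catalytic part still, had a median of 0.32 over Atp5pb, Atp5h, Atp5j and Atp5o. Among the membrane subunits Atp5j2 had 0.48, Atp5mpl 0.36 and Atp5md 0.35, and Atp5l had 0.25 at its brightest probe, with 5 probes between 0.25 and 0.36. Across the chain 23 members had more than 1 measured probe. The gap between the highest and lowest probe of a gene had a median of 0.07, and it passed 0.5 in Atp5c1 alone among these 23 genes.

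The assembly and supercomplex factors had a median of 0.43 over 9 genes, all positive, with 6 at least 25% and 2 at least 1.5-fold higher. Ndufaf8, a small protein that stabilises Ndufaf5 in human cells, had a signal of 1000 in Ad-378 and 616 in Ad-Ctrl, a difference of 0.90. Ndufaf1, an early factor for the membrane arm, had 3944 in Ad-378 and 2640 in Ad-Ctrl (0.78), and Ndufaf2, a late factor related in sequence to the subunit Ndufa12, had 2024 in Ad-378 and 1573 in Ad-Ctrl (0.56). Ndufaf4 differed by 0.46 and Ndufaf7, a mitochondrial methyltransferase, by 0.43. Cox7a2l, which joins complexes III and IV into supercomplexes, had 0.32, and its 3 probes lay between 0.30 and 0.38. Ndufaf5, which modifies Ndufs7 in human cells, was dim at 54.0 in Ad-378 and 49.9 in Ad-Ctrl (0.31). The lowest were Ndufaf3 (0.21) and Ndufaf6 (0.06).

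**Figure D3:**
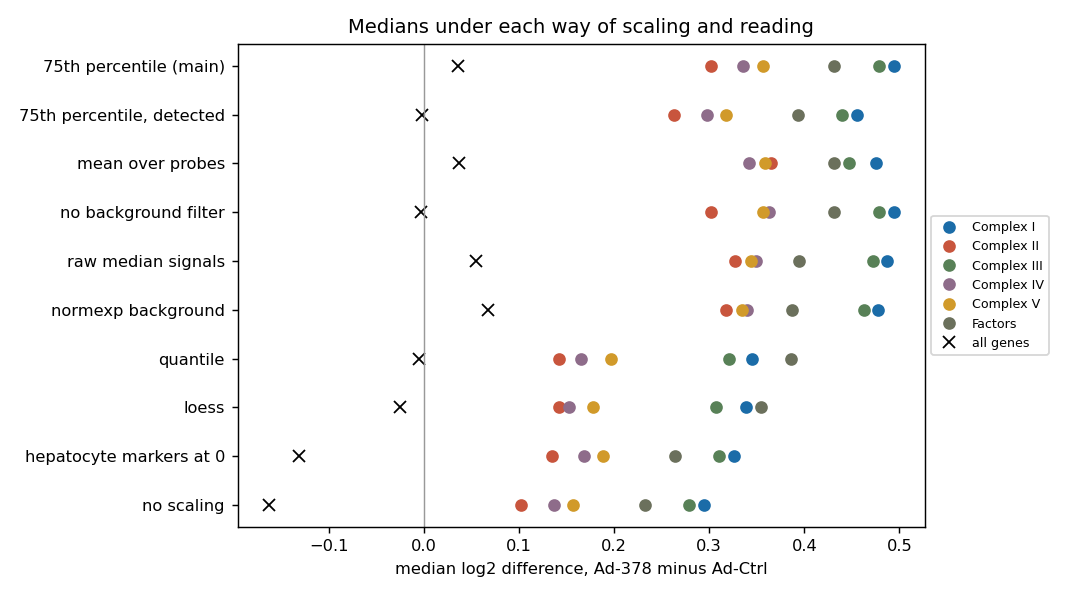
Median log2 difference (horizontal axis, Ad-378 minus Ad-Ctrl) of each complex, of the factors and of all measured genes (crosses) under 10 ways of scaling or reading the arrays (rows). Every complex lies right of all genes in each row; complex I runs from 0.29 without scaling to 0.49, and complex II from 0.10 to 0.36.

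Further genes of the same pathway were read from lists of genes outside the membership rule. The background for the counts of all these lists was 23.1% of all genes at least 25% higher and 22.7% at least 20% lower. Of 47 other assembly factors, 42 were measured, 40 were positive and 23 were at least 25% higher, with a median of 0.33. Cox11, a copper chaperone for complex IV, and Taco1, a translational activator of a complex IV subunit, each had 0.82, while Cox15, of heme A synthesis, had -0.01 and Atpaf1, an ATP synthase factor, had -0.36, the 1 gene of the list at least 20% lower. Atpaf1 was dim, at 13.7 in Ad-378 and 20.1 in Ad-Ctrl, with a scanner error of 0.38, and its value was 0.34 after normexp and -0.05 on the raw median signals, so its direction was not settled. Genes of mitochondrial DNA maintenance and transcription had a median of 0.34 over 19, with 17 positive and 10 at least 25% higher. Tfam, which packages mitochondrial DNA, had 0.48, Mterf2 0.58 and Mterf1a 0.51, beside Rnaseh1 at -0.08 and Primpol at -0.40.

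Nuclear regulators of these genes had a median of 0.04 over 13, close to that of all genes. Ppara, a receptor that drives fatty acid oxidation genes, had 0.86 and Gabpb1 0.50, and Med13, a Mediator subunit, had -1.80. Med13 was dim, at 25.7 in Ad-378 and 103 in Ad-Ctrl, and its value was -0.76 after normexp and -0.90 on the raw median signals. Esrra, the estrogen-related receptor alpha, had 0.46, the coactivator Ppargc1a 0.21, Nrf1 0.04, Ppargc1b, whose gene hosts miR-378, -0.01, Gabpa -0.08 and Pprc1 -0.30. In all, 4 of 13 were at least 25% higher (background 23.1%) and 1, Med13, was at least 20% lower (background 22.7%). Hepatocyte centring turned the median of the list to -0.13.

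Electron carriers and entry points had a median of 0.34 over 22, with 12 at least 25% higher and 2 at least 20% lower. Gpd2, the mitochondrial glycerophosphate dehydrogenase, had 0.98, Coq4, a factor of ubiquinone synthesis, 0.66 and cytochrome c, Cycs, 0.46, while Chdh, choline dehydrogenase, had -0.45 and Coq8b -1.17. The tricarboxylic acid cycle genes had a median of 0.34 over 18, with 10 at least 25% higher. Sucla2 had 0.69, Dlst 0.67 and citrate synthase, Cs, 0.35, beside Dlat at -0.15 and the NADP-dependent Idh2 at -0.55. Carriers of ADP, phosphate and protons had a median of 0.08 over 11. Slc25a3, the phosphate carrier, had 0.42 and Vdac2 0.35, and the uncoupling proteins Ucp3 and Ucp2 had -1.04 and -1.21. Hepatocyte centring turned the median of the carriers to -0.09.

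The counts of these lists also moved with the scaling. With hepatocyte centring 7 of the 42 assembly factors were at least 25% higher (median 0.16), 3 of the 19 mitochondrial DNA genes (0.17), 7 of the 22 electron carriers (0.17) and 5 of the 18 cycle genes (0.18). Under loess they were 16, 10, 7 and 5 in the same order. Of all genes, 12.3% were at least 25% higher with hepatocyte centring and 18.6% under loess.

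Markers of cell types differed between the pools beside these values, and their part in the respiratory chain values was not tested. Of 14 measured hepatocyte markers 11 were positive, with a median of 0.17, and their summed scaled signal was 1436 in Ad-378 and 1288 in Ad-Ctrl. This median turned to -0.01 under quantile normalization and -0.03 under loess. Of 13 measured Kupffer cell and macrophage markers 12 were negative, with a median of -0.83 and summed scaled signals of 71.9 in Ad-378 and 133.6 in Ad-Ctrl. Cd163 of that list did not pass the background filter in both pools. Of 12 stellate cell and fibroblast markers 11 were negative, with a median of -0.78 and sums of 41.7 in Ad-378 and 81.1 in Ad-Ctrl, and Des did not pass the filter. Sinusoidal endothelial markers had 9 of 10 negative, a median of -0.23 and sums of 46.7 in Ad-378 and 56.2 in Ad-Ctrl. Neutrophil markers had a median of 0.01 (6 measured, 3 positive, sums of 12.9 in Ad-378 and 11.3 in Ad-Ctrl), T and NK cell markers -0.46 (10 measured, 3 positive, 11.4 in Ad-378 and 11.7 in Ad-Ctrl) and erythroid markers -0.05 (6 measured, 3 positive, 44.1 in Ad-378 and 42.97 in Ad-Ctrl). Cholangiocyte markers had 0.66 (6 measured, 4 positive, 7.63 in Ad-378 and 3.38 in Ad-Ctrl). Most of these sums came from Spp1, with unscaled signals of 4997 in Ad-378 and 2344 in Ad-Ctrl. Krt19 (-0.37) and Cldn7 (-0.07) were negative. The highest, Cftr (1.74), was dim at 87.9 in Ad-378 and 30.1 in Ad-Ctrl, and had 0.87 after normexp. B and plasma cell markers had 0.56 (5 measured, all positive), with sums of 1.02 in Ad-378 and 0.54 in Ad-Ctrl. With the hepatocyte markers set to 0, complex I kept a median of 0.33 and complex II of 0.13.

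**Figure D4:**
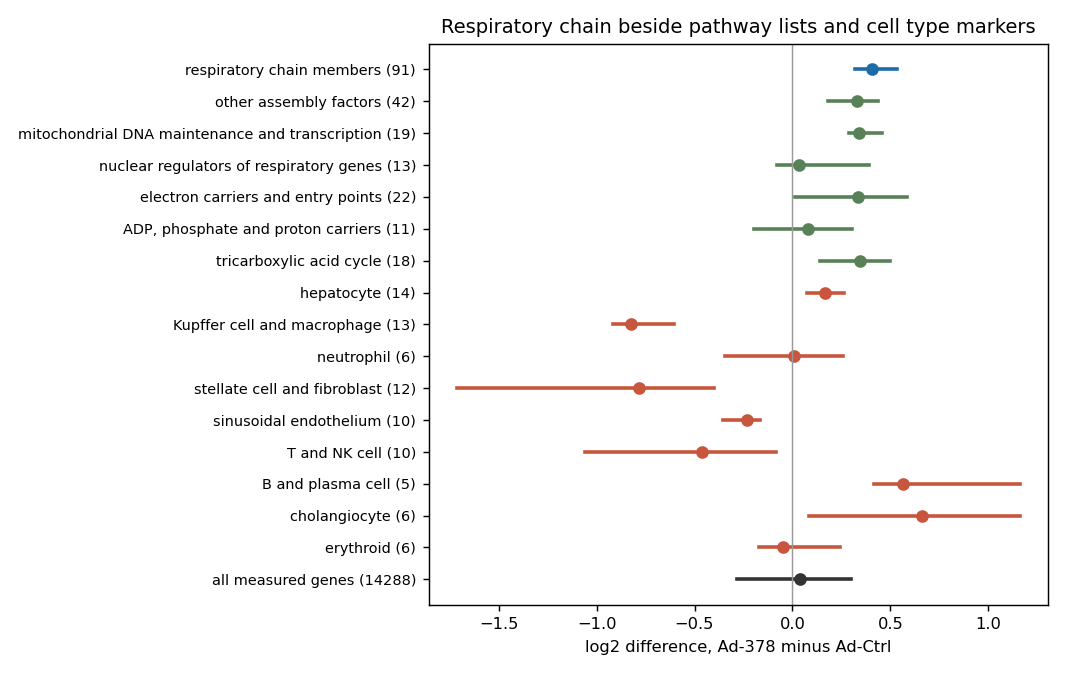
Median (points) and middle 50% (lines) of the log2 difference, Ad-378 minus Ad-Ctrl on the horizontal axis, for the respiratory chain members, pathway lists (green) and cell type markers (red), with the number of measured genes in brackets. The members (0.41) lie above the hepatocyte markers (0.17) and all measured genes (0.04), and macrophage (-0.83) and stellate cell markers (-0.78) lie far below.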

How the data were processed

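Per the labels' protocols, Cy3-labelled RNA was made from 0.5 micrograms and hybridised to 1-colour Agilent arrays. The deposited scanner values are spot intensities. Per the file headers, the processed signal is background-subtracted and detrended within the array by Agilent Feature Extraction 11.0.1.1 (9.1 per the submitters' processing notes), with no scaling between arrays. Both arrays share a scan, so no batch could be tested. The deposited series matrix intensities equal the raw median signal in 100% of spots. Deposited flags (other values, 0 or 1) mark background and outliers.

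Control spots (1377) and outlier spots (123 gene spots per array) were left out, spots of a probe were averaged, and log2 of the signal over the 75th percentile of gene spots was taken. Of 39401 probes, 27219 were named through a RefSeq table (GRCm38.p6), matched without versions. The headers name build mm9, so no gene coordinates are given beyond those of the RefSeq promoter sequences. The scanner error combines the deposited errors of both spots. No test was run. The number of arrays limits the precision.

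The members and lists were chosen with earlier results of these data known, as were the modules within complexes. Named genes are the core subunits, the extremes of each complex (3 highest, 2 lowest), members at least 1.5-fold apart, tissue isoforms, genes whose probes disagree, and 2 extremes per pathway list in each direction with 8 fixed regulators and enzymes. Other members, the neighbouring genes and further probe pairs were chosen after their values were seen. A gene that the rule names is not reported here singly and stays in the counts and medians. Alternatives were quantile and loess normalization, the percentile over detected probes, no background filter, the series matrix values, the mean over probes, normexp, no scaling and hepatocyte centring. For normexp (offset 50, limma 3.58.1, R 4.3.3), 544 spots with outlier local background were left out after the data were seen, since with them the Ad-Ctrl fit was distorted. The steps were tested on simulated data. Python 3.11.15, numpy 2.4.6, pandas 2.3.3 and statsmodels 0.14.6 (loess span 0.3) were used.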

Additional observations from a re-analysis of the deposited data

How the results depend on the processing

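No paired analysis was possible because 1 array per pool leaves a single replicate number. No scaling, hepatocyte centring and complex IV without the isoforms were chosen after seeing the data. Against 68 members in the main setting, those at least 25% higher numbered 32 under quantile normalization, 32 under loess, 29 with hepatocyte centring and 24 with no scaling. Against 15, those at least 1.5-fold higher numbered 5, 4, 4 and 3 in the same order. Of all 14288 genes, 1102 were at least 1.5-fold higher under quantile normalization, 749 with hepatocyte centring and 684 with no scaling. In each of these settings the members' share lay below that of all genes. With no scaling 2 members, not 1, were at least 2-fold lower. No scaling and hepatocyte centring subtract 1 constant from every difference, which lowers these counts by construction; for quantile normalization and loess the cause was not tested. All genes at least 25% higher numbered 3294, but 5201 with no filter on background, 1567 with no scaling and 1759 with hepatocyte centring, and 5126, against 3247, were at least 20% lower with no scaling. At 1.5-fold higher, against 1237, 2573 were counted with no filter, 684 with no scaling and 749 with hepatocyte centring. At 1.5-fold lower, against 1740, the series matrix values gave 1159, with 2618 under no filter, 1073 under normexp and 2770 under no scaling. At 2-fold higher, against 402, the counts were 226 on the matrix values, 1047 with no filter, 200 after normexp and 252 with no scaling, and at 2-fold lower, against 650, they were 388, 1172, 344 and 1025 in the same order. Dropping the filter adds dim genes; why normexp and the matrix gave fewer was not tested. Medians of the complexes stayed positive in all 10 settings, as did 83 of the 91 members. The share of all genes that did so was not counted. The medians moved by less than 1 scanner error of a single gene. No scaling and hepatocyte centring subtract 0.199 and 0.168, which are below that error, so those settings could not exceed it. With no scaling the median fell from 0.30 to 0.10 for complex II and from 0.36 to 0.16 for complex V. By more than their own scanner error moved Atp5c1 (0.21 with the mean over probes), Atp5h (0.51 on the matrix values and after normexp), Cox6a1 (0.18 under quantile normalization and loess) and Cox6b2 (-2.82 after normexp).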
